A study of Bos taurus with 18 samples.

Results

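Lactoferrin, the beta-defensins and the cathelicidins are secreted proteins and peptides that act on microbes, and they were followed here through 5 genes in the cells of cow's milk. The genes were LTF (lactoferrin), DEFB10 (beta-defensin 10), TAP (tracheal antimicrobial peptide), LAP (lingual antimicrobial peptide) and CATHL5 (cathelicidin 5), chosen by exact gene symbol in the platform's probe annotation. They were 5 of 9155 genes named on the array and had 6 of its 24128 probe sets, 2 for LTF and 1 for each of the others. TAP and LAP here are the defensin genes, not the peptide transporter subunits TAP1 and TAP2 or the aminopeptidase LAP3. RNA from milk cells was measured on bovine Affymetrix arrays, with 1 array for each of 18 cows (*Bos taurus*). The groups were 6 cows with mastitis, an inflammation of the udder, 6 cows with endometritis, which inflames the uterine lining, and 6 healthy controls, all from conventional farms and university clinics. Cows with mastitis or endometritis were in lactation 1 to 8 and were sampled 10 to 220 days after calving, with no age given. Healthy cows were labelled as 2 to 4 years old, in lactation 1 to 3 except for 1 cow in lactation 4 and 1 in lactation 8, and most were sampled 10 to 100 days after calving. An age of 4 years and 8 lactations cannot both hold for 1 cow. The healthy cows had no clinical sign and fewer than 100000 cells per ml of milk. No pathogen, treatment or breed is given in the labels, and lactation number and stage are not given cow by cow, so they cannot be told apart from the group.

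Lactoferrin is an iron-binding glycoprotein that withholds iron from bacteria and damages their outer membrane. In the udder it is made by the epithelium and passed into milk, and it is also stored in the secondary granules of neutrophils. Beta-defensins are small cationic peptides held together by disulphide bridges that disrupt microbial membranes. TAP and LAP were first described in cattle as epithelial peptides of the airway and the tongue, and their transcription is known to be induced by bacterial products through NF-kappaB. DEFB10 belongs to the beta-defensins first purified from bovine neutrophils. Cathelicidins are made as precursors with a conserved cathelin domain, stored in neutrophil granules and cut on release. Genes for neutrophil granule proteins are transcribed mainly by precursor cells in the bone marrow, and many of their transcripts are low in mature neutrophils. In the reference gene order CATHL5 lay beside CATHL6 on chromosome 22. DEFB10 lay beside DEFB7, followed by DEFB1, on chromosome 27, which also held TAP and LAP. LTF was also on chromosome 22, between RTP3 and CCRL2.

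All values are deposited log2 values of normalised intensity, on which a difference of 1 is 2-fold, and errors are standard errors (SE) of the limma fit or, where named, SD. The median of all values, 2.55, served as the background level, and the lowest value in the table was 2.43. The labelled cell source was checked against defining markers. The epithelial genes CSN2 (beta-casein) and LALBA (alpha-lactalbumin), the neutrophil genes CXCR1 and S100A8, the macrophage genes CD68 and CSF1R, and the T cell genes CD3D and CD3E were above background on all 18 arrays. CSN2, S100A8 and CD68 never read below 6.37, 5.58 and 7.23, so each sample held RNA of genes that mark several cell types. The lowest values of CD3D, CXCR1 and CD3E, at 2.79, 2.82 and 3.04, were near background and show little about T cells or neutrophils in those samples. The keratin KRT8 was at background on all 18 arrays, and KRT18 was above it on 2 of 6 mastitis arrays, 5 endometritis arrays and 6 healthy arrays. KRT19, another keratin of simple epithelium, averaged 3.04 in mastitis, 7.76 in endometritis and 8.71 in healthy milk cells. In samples that can mix cell types, fewer cells of a type and less RNA per cell cannot be told apart. The arrays could also differ in RNA integrity. The GAPDH control read at the 3′ end of the transcript minus that at the 5′ end, here called the GAPDH gap, was 0.39 ± 0.23 on mastitis arrays, 0.58 ± 0.25 on endometritis arrays and 0.88 ± 0.40 on healthy arrays (SD, n = 6 each).

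Mastitis against healthy asked how udder inflammation changes these defence genes in milk cells. DEFB10 was far higher in mastitis, LTF and CATHL5 were lower, and TAP and LAP did not pass. Of the 6 probe sets, limma's two-sided test with Benjamini-Hochberg adjustment called 1 higher and 2 lower, where 19.5% of the 24016 probe sets tested were called, 10.2% higher and 9.35% lower. With arrays scaled to the hybridisation controls, calls over the whole array split 1996 higher and 900 lower, against 2443 and 2246 here. In endometritis against healthy, limma called 0 of the 6 probe sets and 0% of all tested. At an unadjusted p under 0.05, 1 of the 6 and 1047 of all probe sets passed there, and exact permutation tests put 0 of the 5 genes under 0.05. In mastitis against endometritis, 2 of the 6 were higher and 0 lower, where 14.5% of all probe sets were called, 7.99% higher and 6.55% lower. Those comparisons share groups of cows, so they are not independent of each other. Replicates were separate cows, and precision is limited by their number, 6 in each group.

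**Figure D1:**
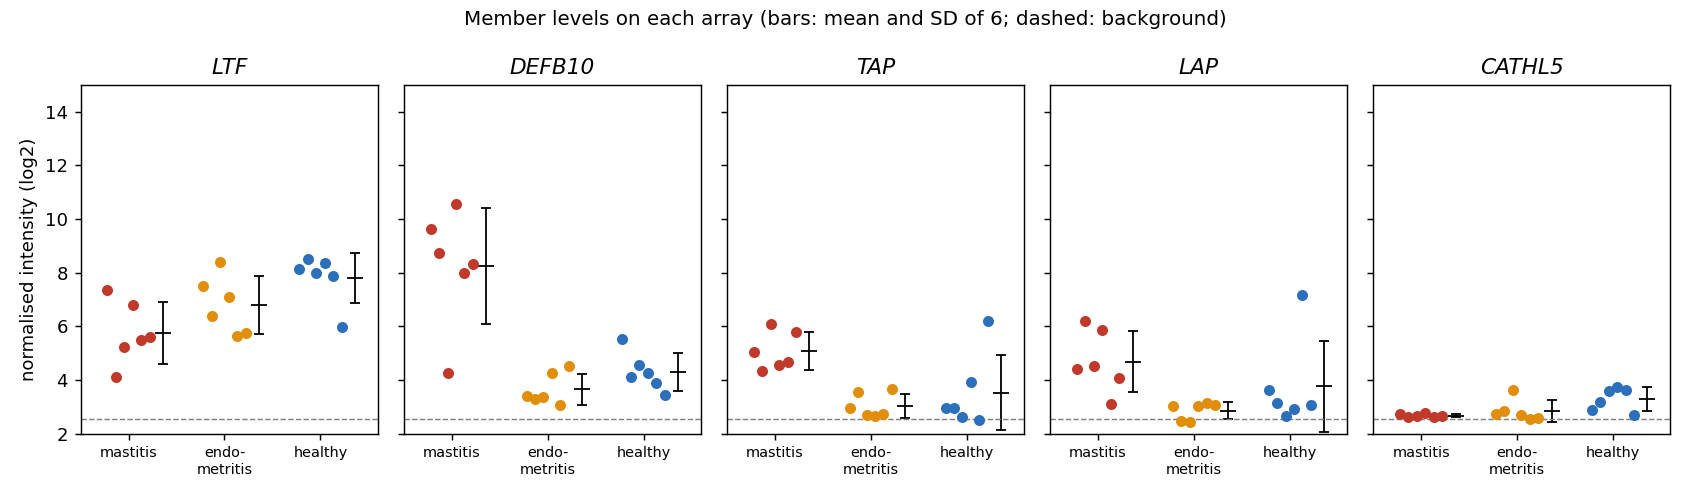
Normalised log2 intensity (y axis) of the 5 genes on each of 18 arrays, grouped as mastitis, endometritis and healthy (x axis); points are arrays, black marks are the mean with SD (n = 6), and the dashed line is the background level of 2.55. DEFB10 is above 8 on 5 mastitis arrays, LTF lies lower in mastitis than in healthy milk cells, and CATHL5 stays near the background line.

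LTF, which encodes lactoferrin, was lower in mastitis than in healthy milk cells. It read 4.11 at the lowest, 5.54 at the median and 7.37 at the highest on mastitis arrays, 5.65, 6.76 and 8.40 on endometritis arrays, and 5.99, 8.07 and 8.52 on healthy arrays. The groups overlapped, because healthy 6 read 5.99 while the other 5 healthy arrays lay between 7.87 and 8.52, and mastitis 1 and mastitis 4 read 7.37 and 6.79. The mastitis mean was 5.77 ± 1.16 and the healthy mean 7.82 ± 0.92 (SD, n = 6 each), a fall by 2.05 ± 0.60 or 4.14-fold (limma adjusted p = 0.0235, and exact two-sided permutation p = 0.013, adjusted 0.0325 over 15 tests of the 5 genes in 3 comparisons). All 6 mastitis arrays lay below the healthy mean. The endometritis mean, 6.81 ± 1.07, stood between them. It was 1.01 below healthy (95% confidence interval -2.28 to 0.26, adjusted p = 0.925), and mastitis was 1.04 below endometritis (-2.31 to 0.23, adjusted p = 0.304). The order of the means was therefore mastitis, endometritis, healthy from low to high, with neither neighbouring pair parted by the test. The second LTF probe set was at background on all 18 arrays and gave no difference in either direction. The call for mastitis against healthy was lost without healthy 2, healthy 4 or mastitis 2 (adjusted p = 0.0537, 0.0546 and 0.0567), and with the GAPDH gap as a covariate (-1.56, adjusted p = 0.278).

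DEFB10 showed the largest difference among the 5 genes. It read 4.27, 8.53 and 10.58 (lowest, median, highest) on mastitis arrays, 3.06, 3.39 and 4.53 on endometritis arrays, and 3.44, 4.20 and 5.54 on healthy arrays. Of the mastitis arrays 5 lay above every endometritis and healthy array, and mastitis 3, at 4.27, lay among them. The gene was above background on all 18 arrays. It was 3.95 ± 0.77 higher in mastitis than in healthy milk cells, or 15.5-fold (95% confidence interval 2.31 to 5.59, limma adjusted p = 0.002, exact permutation p = 0.00649, adjusted 0.0195). Against endometritis it was 4.60 ± 0.77 higher, or 24.3-fold (adjusted p = 0.00104, higher than the endometritis mean on 6 of 6 arrays). Endometritis and healthy differed by -0.65 (-2.29 to 0.99, adjusted p = 0.959). No single array ended the DEFB10 calls, whose differences ran from 3.49 to 4.75 and from 4.14 to 5.40 when each of the 18 was left out. With the GAPDH gap as a covariate the difference from healthy was 3.24 (adjusted p = 0.055). DEFB10 is 1 of a cluster of similar genes, and whether its probes also bind transcripts of its relatives was not tested.

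TAP and LAP, both known as epithelial defensins, lay within a few log2 units of background and were uneven between cows. TAP read 4.34, 4.86 and 6.08 (lowest, median, highest) on mastitis arrays, 2.68, 2.83 and 3.66 on endometritis arrays, and 2.50, 2.95 and 6.20 on healthy arrays. All 6 mastitis arrays were above all 6 endometritis arrays, and healthy 6, at 6.20, read higher than any mastitis array. TAP was 2.04 ± 0.53 higher in mastitis than in endometritis, or 4.12-fold (limma adjusted p = 0.0166, exact permutation p = 0.00216, the smallest that 6 against 6 can give, adjusted 0.0195). That call did not hold with a term for the number in the sample titles (1.67, adjusted p = 0.0552). Against healthy, TAP was 1.56 ± 0.53 higher with an adjusted p of 0.0514, which missed the threshold, and exact permutation p = 0.0368 (adjusted 0.0788). Without healthy 6 the difference was 2.10 (adjusted p = 0.00075). With all 18 arrays kept, 5 other settings also put it under the threshold (adjusted p 0.0219 to 0.047). In 6 further settings it did not pass, among them the GAPDH gap as a covariate (1.20, adjusted p = 0.388). The others included a fit of the 12 arrays compared (0.124) and the title number term (0.0621), so the call depended on the setting. Endometritis and healthy differed by -0.48 in TAP (-1.62 to 0.65, adjusted p = 0.945).

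LAP followed a similar pattern with another exception. It read 3.11, 4.46 and 6.19 on mastitis arrays, 2.43, 3.02 and 3.13 on endometritis arrays, and 2.67, 3.10 and 7.19 on healthy arrays. The value of 7.19 came from healthy 5 and was the highest of all 18, while the other healthy arrays lay between 2.67 and 3.63. Mastitis was 0.93 ± 0.68 above healthy (95% confidence interval -0.52 to 2.38, adjusted p = 0.413), and 1.61 above without healthy 5 (adjusted p = 0.0211). Against endometritis LAP was 1.83 ± 0.68 higher and did not pass in limma (adjusted p = 0.0884), whereas the exact permutation test gave p = 0.00433 (adjusted 0.0195). It passed in limma without healthy 5 or mastitis 5 (adjusted p = 0.00884 and 0.045). The healthy arrays with the highest TAP and the highest LAP were therefore different cows, and TAP in healthy 5, at 2.50, was the lowest of all 18 arrays.

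**Figure D2:**
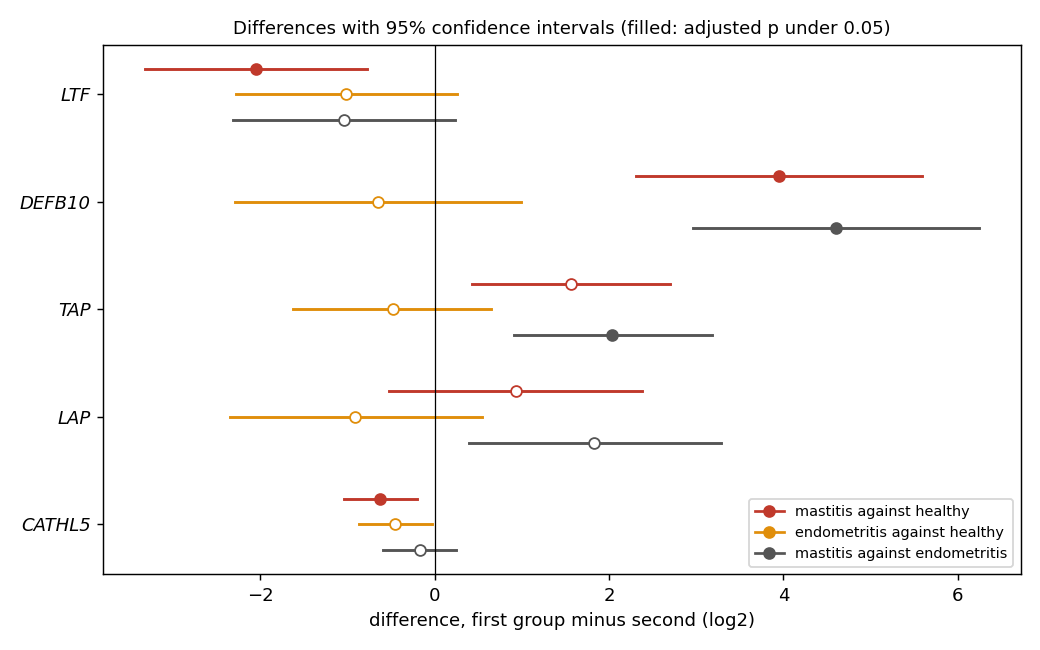
Difference between groups (x axis, log2, first-named group minus second) for each gene (y axis) in the 3 comparisons, with 95% confidence intervals from limma; filled points have an adjusted p under 0.05. The DEFB10 intervals for mastitis run from 2.31 to 5.59 against healthy and from 2.96 to 6.24 against endometritis, and each interval for endometritis against healthy holds 0 except that of CATHL5, which ends at -0.03.

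CATHL5, the cathelicidin member, was near background throughout. It read 2.61, 2.67 and 2.76 (lowest, median, highest) on mastitis arrays, 2.56, 2.71 and 3.64 on endometritis arrays, and 2.70, 3.39 and 3.76 on healthy arrays. Healthy 6 was its lowest healthy array, as it was for LTF, and endometritis 3 was the highest array of its group for both genes. CATHL5 was 0.62 ± 0.20 lower in mastitis than in healthy milk cells, or 1.54-fold (limma adjusted p = 0.0356, exact permutation p = 0.00649, adjusted 0.0195), with 6 of 6 arrays below the healthy mean. When the arrays were left out in turn, 10 of 18 fits no longer made the call (adjusted p between 0.0501 and 0.0878), and with arrays scaled to the hybridisation controls the difference was -0.36 (adjusted p = 0.514). With the GAPDH gap as a covariate it was -0.19 (adjusted p = 0.638). Endometritis was 0.45 below healthy (-0.87 to -0.03, adjusted p = 0.925), and mastitis 0.17 below endometritis (-0.59 to 0.25, adjusted p = 0.641).

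The other measured cathelicidins were near background, and those that left it did so mostly in mastitis. CATHL1 read 2.46, 2.98 and 5.61 (lowest, median, highest) on mastitis arrays, with 5 of 6 above background, and 2.43 on every endometritis and healthy array. Mastitis 3, at 2.46, was itself under the background level. The difference from healthy, at least 1.82-fold against that level, had an adjusted p of 0.0808. CATHL4 and CATHL3 were each above background on 3 mastitis arrays and on 0 arrays of the other groups (adjusted p = 0.104 and 0.115). CATHL2 was above background on 2 mastitis arrays and 1 healthy array. CATHL6, the neighbour of CATHL5, and CAMP were at background on all 18 arrays. None of these transcripts passed the limma test in mastitis against healthy, and their levels near background limit what the arrays can show.

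Among the other beta-defensins 3 of 34 listed genes were measured, and 0 of them passed in either direction in any comparison. DEFB4A, described in bovine neutrophils and macrophages, averaged 9.21 ± 1.57 in mastitis, 7.63 ± 2.42 in endometritis and 7.94 ± 2.28 in healthy milk cells (SD, n = 6 each). The probe set used for it can bind more than 1 transcript. A second DEFB4A probe set averaged 6.93 in mastitis, 5.66 in endometritis and 6.15 in healthy milk cells. EBD, the enteric beta-defensin, averaged 5.56 in mastitis, 4.87 in endometritis and 4.91 in healthy milk cells. Mastitis minus healthy was 1.27 ± 1.20 for DEFB4A (adjusted p = 0.523) and 0.65 ± 0.89 for EBD (adjusted p = 0.682). DEFB13 was above background on 1 mastitis array.

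**Figure D3:**
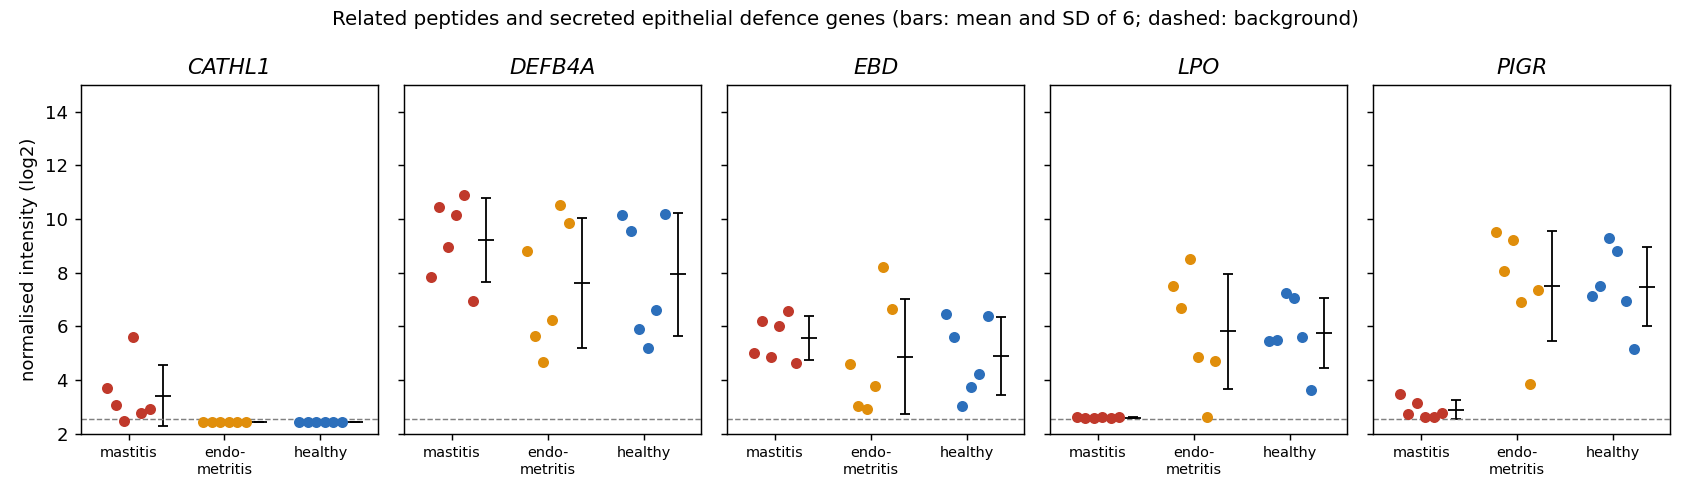
Normalised log2 intensity (y axis) of 2 groups of related genes, the peptides CATHL1, DEFB4A and EBD and the epithelial defence genes LPO and PIGR, on each array of the mastitis, endometritis and healthy groups (x axis); black marks are the mean with SD (n = 6) and the dashed line is background. CATHL1 is above the background level on 5 mastitis arrays and on no other array, DEFB4A and EBD overlap between the groups, and LPO and PIGR are near background in mastitis.

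Markers of other cell types moved with the groups. Of 15 measured neutrophil markers 13 rose in mastitis against healthy and 0 fell, with a median difference of 4.44. Over all probe sets 10.2% rose, 9.35% fell and the median difference was 0.0. CXCR1, the receptor for interleukin 8, averaged 10.58 in mastitis, 4.52 in endometritis and 5.07 in healthy milk cells. Of 28 measured genes of the milk-secreting epithelium 18 fell and 2 rose, with a median difference of -5.18. The 2 that rose were DGAT1, which makes triglycerides, and SLC2A1, a glucose transporter that many cell types use. CSN2 averaged 8.09 in mastitis, 13.14 in endometritis and 13.33 in healthy milk cells. Of 24 epithelial structure genes 14 fell and 1, LAMB3, rose. Macrophage and T cell markers had 0 of 16 genes passing each, and the natural killer list had 3 of 11 higher. Of 6 measured eosinophil and mast cell markers 2 were lower in mastitis, ALOX15, a lipoxygenase of eosinophils and macrophages known from human and mouse, and KIT, a receptor that mast cells and some epithelial cells carry. The score of that list ran from -1.11 to -0.71 in mastitis, from -0.23 to 0.99 in endometritis and from 0.00 to 0.83 in healthy samples, and 2 of the 6 genes were at background on all 18 arrays. In endometritis against healthy, 0 genes of any of the 14 lists passed. The mean of each list, centred over the arrays, gave a score per array. The neutrophil score ran from 1.62 to 3.41 in mastitis, from -2.04 to 0.18 in endometritis and from -1.65 to -0.04 in healthy samples. The secretory score ran from -2.77 to -1.30 in mastitis, from -0.74 to 1.96 in endometritis and from 0.24 to 1.85 in healthy samples. Mastitis and healthy do not overlap in either score, so cell composition and the effect of mastitis within a cell type cannot be told apart in these samples.

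Within the groups, LTF was set against the epithelial score and DEFB10 against the neutrophil score, and both relations passed over the pooled arrays and in no single group. After the group means were taken off, LTF and the secretory score correlated over 18 arrays with r = 0.72 (permutation within groups p = 0.00115, adjusted 0.0443 over 40 relations), with Spearman's rho 0.50 (adjusted p = 0.411). It was 0.71 without mastitis 3 and mastitis 5, the 2 arrays farthest from the median score before group means were taken off. That choice follows the distance between groups, so it does not test the arrays farthest within their own group. LTF and the neutrophil score gave r = -0.13 (adjusted p = 0.809). DEFB10 and the neutrophil score gave r = 0.60 (p = 0.00332, adjusted 0.0443) and rho 0.49 (adjusted 0.411). Without mastitis 1 and mastitis 2, chosen in the same way and with the same limit, r was 0.56. DEFB10 and the secretory score gave r = 0.25 (adjusted p = 0.438). Both relations passed by Pearson's r and not by rank. Among probe sets with a mean above background, 2.56% had an r with the secretory score at least as high as LTF. For the neutrophil score, 4.71% had an r at least as high as DEFB10. Within single groups of 6, the LTF relation was r = 0.64 in mastitis, 0.75 in endometritis and 0.89 in healthy samples, none of which passed after adjustment. Without the 2 farthest arrays of each group these values were -0.01, 0.68 and 0.00, so in mastitis and healthy samples the relation rested on those arrays. The DEFB10 relation was r = 0.66 in mastitis, 0.84 in endometritis and 0.78 in healthy samples, none passing after adjustment. Without the 2 farthest arrays it was 0.17, -0.92 and -0.73, so it rested on those arrays in every group. A score of 18 granule proteins gave DEFB10 r = 0.88 in mastitis (exact permutation p = 0.00417, adjusted 0.0377). There rho was 1.0 (adjusted p = 0.0556), and r was 0.94 without the 2 farthest arrays. With that score r was 0.76 in endometritis and 0.14 in healthy samples, neither passing (adjusted p = 0.306 and 0.904). Over the 18 arrays it was 0.67 (adjusted p = 0.0377), with rho 0.52 (adjusted p = 0.278). Of the 18 granule protein genes, 4 were above background on all arrays and 3 were at background on all arrays. The score therefore does not show that all 18 followed DEFB10. CATHL5 went with the secretory score in healthy samples (r = 0.90, exact p = 0.00278, adjusted 0.0443, rho 0.94 with adjusted p = 0.222, and r = 0.85 without the 2 farthest), and over the 18 arrays r was 0.64 (adjusted p = 0.17). TAP and LAP passed with neither score. For TAP r was -0.12 with the neutrophil and -0.32 with the secretory score (adjusted p = 0.803 and 0.437), and for LAP 0.30 and 0.04 (0.438 and 0.893). By rank, LAP and the neutrophil score gave rho 0.71 (permutation p = 0.00325, adjusted 0.065), above the rho of DEFB10 with that score.

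**Figure D4:**
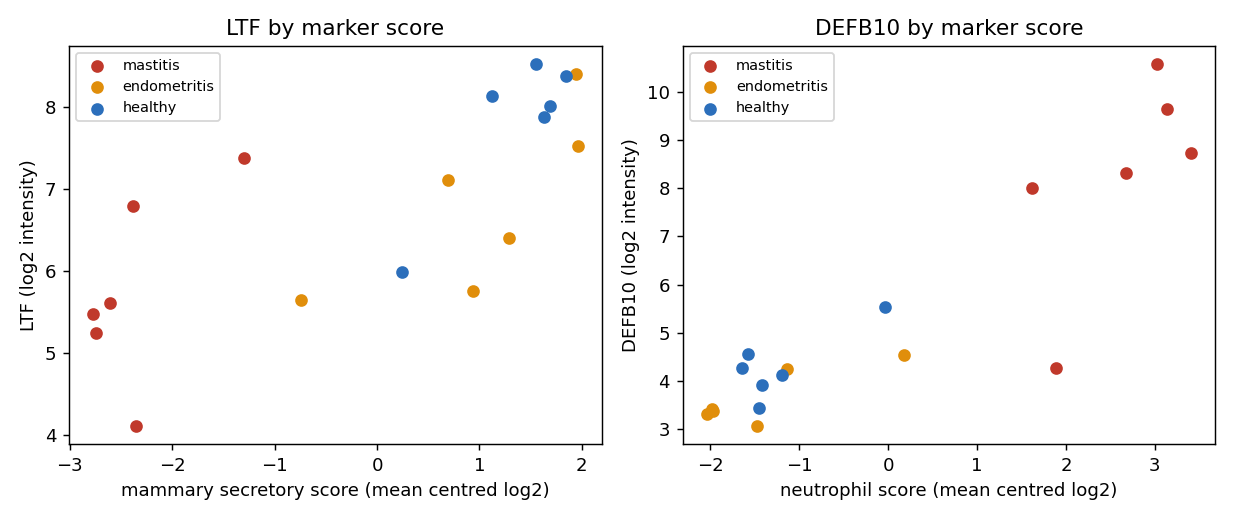
LTF against the mammary secretory score (left) and DEFB10 against the neutrophil score (right), both genes as log2 intensity and both scores as the mean centred log2 value of the marker list, with 1 point per array coloured by group. The mastitis arrays lie apart on both score axes, at -2.77 to -1.30 on the left and 1.62 to 3.41 on the right.

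Adding the scores to the model changed the estimates. With the secretory score as a covariate, LTF in mastitis minus healthy was 1.76 ± 1.05 (limma adjusted p = 0.391), against -2.05 ± 0.60 without it. DEFB10 was then 5.67 ± 1.89 (adjusted p = 0.105). With the neutrophil score, DEFB10 was -0.34 ± 1.63 and LTF -1.35 ± 1.57 (adjusted p = 1.0 for both). In those fits 1061 and 0 probe sets of the whole array passed in mastitis against healthy. Because mastitis and healthy samples do not overlap in either score, these estimates extrapolate and cannot part the score from the group.

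A list of other secreted antimicrobial proteins of epithelium had 19 measured genes, not all of them secreted or made by epithelium alone. In mastitis against healthy 3 rose, 3 fell and 13 did not pass, with a median difference of -0.04. Over all probe sets 10.2% rose and 9.35% fell. LPO, which makes the antibacterial oxidant system of milk, averaged 2.61 in mastitis, 5.81 in endometritis and 5.76 in healthy milk cells, a difference from healthy of -3.15 ± 0.82 (limma adjusted p = 0.0128). PIGR, the receptor that carries immunoglobulin A into milk, was 4.58 ± 0.83 lower in mastitis than in healthy milk cells (adjusted p = 0.00123), and MUC1, the membrane mucin of the milk fat globule, fell by 3.30 (adjusted p = 0.0101), with 1 of 6 mastitis arrays above background, so that the size of its fall is limited by the background level. The same limit holds for LPO, at 2.58 to 2.62 on mastitis arrays, and for PIGR, at a median of 2.74 there. S100A12, SAA3 and NOS2 were the 3 that rose, by 3.68, 1.95 and 4.99 (adjusted p = 0.0021, 0.0311 and 0.000649). S100A12 is also a neutrophil product, SAA3 is the acute phase protein made in the udder, and NOS2 is the enzyme that makes nitric oxide. Which cells gave these rises was not tested. Among 18 measured granule proteins 3 rose, CHI3L1, OLFM4 and the metal transporter SLC11A1, and 15 did not pass, with a median difference of 0.17. These counts are near the shares over all probe sets. OLFM4, a protein of neutrophil specific granules known from human and mouse, averaged 6.41 in mastitis and 2.57 in healthy milk cells (3.84 ± 0.58 higher, adjusted p = 0.000354), and 4 of 6 healthy arrays were above background, so that the background level limits the size of this rise. MPO, ELANE, BPI and PGLYRP1, proteins stored in neutrophil granules, were at or near background in mastitis.

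The receptors and factors that induce defensins were measured as single genes. Of 31 measured genes 14 rose and 0 fell in mastitis against healthy, with a median difference of 0.94, and 15 rose against endometritis. Over all probe sets 10.2% rose against healthy and 7.99% against endometritis. TLR4, the receptor for lipopolysaccharide, rose by 4.42 ± 0.69 (limma adjusted p = 0.000417), and TLR2 by 3.29. CEBPB, a transcription factor of inflammatory genes, averaged 7.82 in mastitis and 3.78 in healthy milk cells (adjusted p = 9.71e-05), and NFKB1 rose by 3.10 (adjusted p = 0.000129). IL1B, at 2.33 above healthy, did not pass (adjusted p = 0.122), and TNF differed by 0.01. IL17A was near background in every group (2.60 in mastitis and 2.43 in healthy). Neutrophils also express TLR4 and CEBPB, and the neutrophil markers listed above rose in the same samples. Their part in these rises was not tested.

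Within mastitis the members did not share 1 order. DEFB10 ranked mastitis 4, 1, 2, 6, 5 and 3 from high to low. CATHL1 had the same order, and OLFM4 differed from it by 1 exchange of neighbours (4, 1, 6, 2, 5, 3). CHI3L1 had the order of OLFM4, and S100A12 (4, 2, 1, 6, 5, 3) and S100A8 (4, 2, 6, 1, 5, 3) were close to it. CXCR1 (2, 1, 4, 6, 3, 5) and SLC11A1 (1, 4, 2, 5, 3, 6) ran otherwise. An order from mastitis 4 down to mastitis 3 was therefore not particular to DEFB10 and CATHL1. The agreement of DEFB10 and CATHL1 (rho 1.0, exact p = 0.00278) was chosen after the values were seen and gave adjusted p = 0.0611 over 22 relations, with r = 0.74. TAP ran 3, 6, 1, 5, 4, 2 and gave r = -0.71 with DEFB10 (adjusted p = 0.471), LAP was highest on mastitis 2, and LTF was highest on mastitis 1 and lowest on mastitis 2. None of the 22 relations passed.

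**Figure D5:**
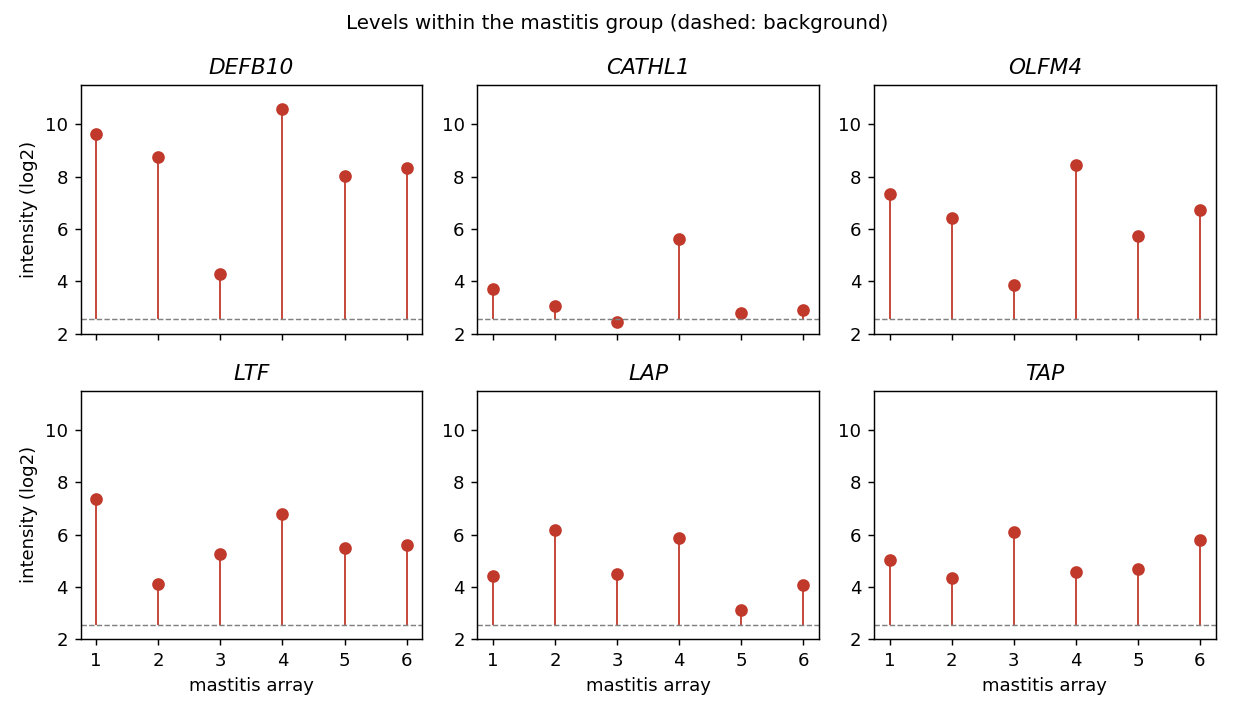
Log2 intensity (y axis) on the 6 mastitis arrays (x axis, numbered as in the text) of DEFB10, CATHL1, OLFM4, LTF, LAP and TAP; each stem rises from the dashed background level of 2.55. DEFB10, CATHL1 and OLFM4 are highest on mastitis 4 and lowest on mastitis 3, whereas TAP is highest on mastitis 3.

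The genes most like each member were found by Pearson's r over the 18 arrays among 6548 named genes, first as measured and then with group means taken off. For LTF the first 5 were led by FXYD6 (r = 0.869), a regulator of the sodium pump, and ended with CDH1, the epithelial adhesion molecule E-cadherin, at 0.824. With group means off, NUPR1 (0.867), TMC4 (0.811) and FXYD6 (0.77) led. For DEFB10, OLFM4 was first in both forms (0.952 and 0.889), followed by RASGRP2, TRAF3 and VSIR (0.951, 0.945 and 0.945 as measured). For TAP the leading genes were TBC1D4 (0.875) and BOLA-DMA (0.832) as measured, and with group means off NHEJ1 (0.843) and TBC1D4 (0.814). For LAP they were TTC19 (0.828) and, with group means off, OSMR, the oncostatin M receptor (0.837). For CATHL5, NUDT8 was first in both forms (0.947 and 0.965). These are the highest of many correlations and carry no test.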

How the data were processed

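Milk cell RNA from 18 cows was measured on bovine Affymetrix arrays. Per the labels' protocols, samples with an RNA integrity number above 6 were amplified from 100 ng of RNA with a 3′ IVT Express kit, and 10 µg of labelled RNA was hybridised. The values are the authors' deposited normalised log2 intensities. The base of the log is not given in the sources used here and was taken as 2 from the range of 2.43 to 14.2. Per the submitters' processing notes, RMA, GCRMA and limma were used, with no role or version given. Probe sets were named from the platform annotation, and gene order came from the ARS-UCD2.0 reference. Of 24128 probe sets, 112 controls were left out and 24016 entered a limma fit (version 3.58.1, R 4.3.3) with the 3 groups in 1 model and Benjamini-Hochberg adjustment, called under 0.05. The 5 genes were also tested by exact two-sided permutation over 924 arrangements. Named genes were every member, up to 4 genes per list and comparison with the smallest limma p, and the 5 genes most like each member, as measured and with group means taken off. Other list genes, such as the further cathelicidins and beta-defensins, granule proteins, marker genes, TNF and IL17A, were named after their values were seen. The members, lists and tests were chosen with earlier results of these data known. A far array was marked where its gap to the others passed 0.625 of the group's range. The linear model was tested on simulated data. Alternatives were array weights, covariates, scalings, a filter on dim probe sets, 12-array fits, other fits and each array left out. Precision is limited by the number of arrays.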

Additional observations from a re-analysis of the deposited data

Results flagged for a closer look

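7 values lay far from the other 5 arrays of their group, by a gap rule that chance passes in about 5 of 100 groups, and 32 groups were checked. LTF read 5.99 on healthy 6, where the others lay between 7.87 and 8.52. LAP read 7.19 on healthy 5, with the others at 2.67 to 3.63. CATHL5 read 3.64 on endometritis 3, with the others at 2.56 to 2.86. CATHL2 read 3.32 on mastitis 4, with the others at 2.44 to 2.74, and 2.67 on healthy 3, with the others at 2.44 to 2.46. CATHL2 and CATHL5 lay near background, where that chance rate need not hold. The neutrophil marker score was -0.04 on healthy 1, with the others at -1.65 to -1.19, and DEFB10 was also highest of its group there, at 5.54. The mammary secretory score was -1.30 on mastitis 1, with the others at -2.77 to -2.35, and LTF was also highest of its group there, at 7.37.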

How the results depend on the processing

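No paired analysis was possible because the replicate numbers follow only the order of deposit and pair no cows. In mastitis against healthy, scaling to the hybridisation controls gave 2896 calls in place of 4689, moved the median of probe sets above background from -0.01 to 0.25, and gave CATHL5 -0.36 (adjusted p = 0.514) and TAP 1.82 (0.0338). The GAPDH gap as a covariate gave 1428 calls (856 higher and 572 lower), 0 members, CATHL5 -0.19, DEFB10 3.24 and LTF -1.56. CATHL5 lost its call under median centring (-0.62, limma adjusted p = 0.0801) and quantile normalisation (-0.63, 0.0573). TAP passed at 1.56 with dim probe sets left out (0.0219), median centring (0.0359) and a trended robust fit (0.047), and at 1.81 with array weights (0.0252). The neutrophil score as a covariate gave 0 calls and 0 members, with CATHL5 0.08, DEFB10 -0.34, LTF -1.35 and LAP -0.99. The secretory score gave 1061 calls, 0 members, CATHL5 0.48, DEFB10 5.67 and LTF 1.76. In endometritis against healthy, 1 probe set was called with dim probe sets left out, either scaling, the trended fit or array weights. In mastitis against endometritis, control scaling gave 1981 calls in place of 3493. LAP passed at 1.83 with 12 arrays (0.0339) or dim probe sets left out (0.0391), and the title number term left 1 member, with TAP 1.67. There the neutrophil score gave 0 calls, 0 members, CATHL5 0.57, LAP -0.17, DEFB10 0.10 and TAP 2.65, and the secretory score 1572 calls, 1 member, CATHL5 0.83, LTF 2.43 and TAP 0.66. With the epithelial structure score in place of the secretory score r was -0.06 for DEFB10, -0.08 for LAP and 0.71 for CATHL5 (adjusted p = 0.0377). With granule proteins in place of neutrophil markers r was 0.11 for TAP and -0.61 for CATHL5 (0.0377). The cause of these changes was not tested. Leaving out each array gave, for mastitis against healthy, 3786 to 4854 calls, 1 to 4 members, LTF -2.41 to -1.72, DEFB10 3.49 to 4.75, TAP 1.36 to 2.10, LAP 0.63 to 1.61 and CATHL5 -0.74 to -0.53. For endometritis against healthy it gave 0 to 1 calls, 0 members and TAP -0.69 to 0.05, the last without healthy 6. For mastitis against endometritis it gave 2639 to 3835 calls, 2 to 3 members, DEFB10 4.14 to 5.40, TAP 1.84 to 2.19 and LAP 1.53 to 2.15. By title number, LTF in mastitis minus healthy was -1.63 up to 120 and -2.48 above, and DEFB10 3.93 and 4.44.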

Other observations

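DEFB4A and EBD kept 1 order in endometritis, from high to low arrays 5, 6, 1, 4, 2 and 3. The macrophage receptor CSF1R ran 5, 6, 4, 1, 2 and 3 on the same arrays. In healthy milk cells DEFB4A ran 6, 1, 2, 5, 3 and 4, and CSF1R ran 1, 6, 2, 5, 4 and 3. In mastitis the likeness was absent, with DEFB4A at 5, 2, 4, 3, 1 and 6 and CSF1R at 6, 3, 5, 2, 1 and 4. DEFB4A spanned 4.66 to 10.53 in endometritis and 5.19 to 10.19 in healthy milk cells, so its spread between cows exceeded the difference of -0.31 between those means. No test was run on these orders, which were noticed after the values were seen.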
